A study of Mus musculus with 6 samples.

Results

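The 31 genes described here encode the signalling subunits of the B cell receptor, the kinases and adaptors behind them, and the transcription factors and surface proteins that give B lymphocytes their identity. They were chosen by symbol from a fixed list, and all 31 were found among the 22899 genes of the table and passed the filter on low values, which 10788 genes passed. The libraries were made from spleen cells of C57BL/6 mice that had been sorted by flow cytometry as CD4+ T cells. Lean mice ate a normal diet, and obese mice ate a high-fat diet with 60 kcal% fat that generally began at 6 to 8 weeks of age and ran for up to 4 months. Each group had 3 libraries, called lean 1 to lean 3 and obese 1 to obese 3. The labels do not say whether a library came from 1 mouse or from a pool, so the p-values rest on the spread from library to library, which may be technical. Levels are FPKM, fragment counts scaled by the length of the transcript and by how many fragments of the library mapped, and the read depth behind them is unknown.

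The sort was for T cells, and T cell transcripts were abundant: Cd4 lay between 279 and 363 FPKM and Cd3e between 346 and 455 FPKM over the 6 libraries. Defining genes of B cells were present as well. Cd79a, a receptor subunit, lay between 150.03 and 405 FPKM, and Ms4a1, which encodes the B cell surface protein CD20 and is not among the 31 genes, between 21.5 and 74.3 FPKM. In RNA from many cells, fewer cells of a type and less RNA per cell cannot be told apart. Genes of 4 other cell types moved with diet in the same libraries: all 14 macrophage and monocyte markers and 11 of 12 erythroid markers were called higher in obese libraries, and 7 of 10 neutrophil and 3 of 7 natural killer cell markers were called lower. A gene was called when its p-value from limma, a linear model fitted to all tested genes, was under 0.05 after Benjamini-Hochberg (BH) adjustment. Of all tested genes, 5.77% were called higher and 0.519% lower. No marker of T cells (9 tested) or dendritic cells (8 tested) was called.

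The B cell receptor is a membrane antibody bound to a heterodimer of CD79A and CD79B, whose tails carry tyrosine activation motifs. When antigen is bound, Src-family kinases such as LYN and BLK phosphorylate these motifs, SYK docks on them, and SYK and BTK act through the adaptor BLNK on phospholipase C gamma 2, which raises calcium and diacylglycerol. The transcription factors PAX5 and EBF1 set and hold the B cell programme, and OCT-2 with its co-activator OBF-1 acts at octamer sequences found in antibody genes and some other B cell genes. T cells run a parallel cascade with other kinases and adaptors, so most of these genes are low in helper T cells. Macrophages, in contrast, use LYN, SYK, BTK, phospholipase C gamma 2 and BCAP downstream of their own receptors.

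Promoter sequence illustrates the regulators in the list. RefSeq promoters of build GRCm38.p6 were found for 25 of the 31 genes, with 31 entries in all, and the 250 bases before each start were searched on both strands. The octamer ATTTGCAT, the sequence bound by OCT-2 (encoded by Pou2f2), was in promoters of Vpreb3 and Blnk, 6.45% of the member entries against 1.6% of all 32851 promoters. The ETS sequence GAGGAAGT, of the kind bound by the Spib product and its relative PU.1, was in those of Cd72 and Cd37, 6.45% against 2.44%. The E-box CAGGTG, of the kind bound by the E2A proteins, was in those of 9 genes and in 32.3% of member entries against 17.2%. The EBF1 palindrome (TCCC, any 2 bases, GGGA) was in no member entry and in 0.779% of all promoters. None of these motifs overlaps another in the printed sequences. A match is a description of the letters and not a bound site. The promoters below were chosen to show the octamer, the E-box and the ETS sequence in 4 members, with the matched letters in capitals, read 5′ to 3′ on the strand of the gene and ending just before the start that the RefSeq promoter table gives. For Vpreb3 and Cd72 that start lies inside the gene's annotated interval (chromosome 10, 75943024 to 75949657, and chromosome 4, 43447724 to 43455102), downstream of its outermost start.
Vpreb3 (chr10:75948050-75948299, plus strand, octamer): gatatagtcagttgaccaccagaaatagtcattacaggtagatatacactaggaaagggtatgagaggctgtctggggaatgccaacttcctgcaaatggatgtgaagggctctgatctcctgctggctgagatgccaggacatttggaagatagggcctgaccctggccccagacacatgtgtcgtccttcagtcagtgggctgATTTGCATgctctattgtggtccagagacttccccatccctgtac
Blnk (chr19:40994222-40994471, minus strand, E-box and octamer): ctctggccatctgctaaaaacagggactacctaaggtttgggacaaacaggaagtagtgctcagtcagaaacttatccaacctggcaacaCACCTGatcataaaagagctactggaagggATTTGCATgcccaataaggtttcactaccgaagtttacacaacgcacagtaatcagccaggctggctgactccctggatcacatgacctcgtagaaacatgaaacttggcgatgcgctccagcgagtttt
Cd79a (chr7:24897247-24897496, plus strand, E-box): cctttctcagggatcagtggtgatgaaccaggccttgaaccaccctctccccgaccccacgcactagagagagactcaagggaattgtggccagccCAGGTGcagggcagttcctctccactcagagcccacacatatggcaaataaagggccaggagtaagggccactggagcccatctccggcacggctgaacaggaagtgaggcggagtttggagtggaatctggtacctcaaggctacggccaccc
Cd72 (chr4:43454627-43454876, minus strand, ETS sequence on the other strand): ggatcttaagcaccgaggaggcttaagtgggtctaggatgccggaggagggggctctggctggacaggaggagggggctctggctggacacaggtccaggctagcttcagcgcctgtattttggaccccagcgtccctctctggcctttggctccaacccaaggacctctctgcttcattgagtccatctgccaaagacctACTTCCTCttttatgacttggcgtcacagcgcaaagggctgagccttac

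The libraries of a group did not carry the same level of these genes. In 26 of the 31 genes, lean 2 was the highest lean library and obese 3 the highest of all 6 libraries, an order that 6.25% of all tested genes showed (674 of 10788). Obese 3 was the highest obese library for all 31 genes, against 50.5% of tested genes, and lean 2 the highest lean library for 28 genes, against 24.7%. The 5 genes with another order were Cd37 and Vpreb3, whose highest library of all was lean 2, Pou2f2, whose highest lean library was lean 1, and Dapp1 and Cd1d1, whose highest lean library was lean 3. The mean log2(FPKM + 1) level of the 31 genes ran from 4.31 to 4.82 in lean and from 4.73 to 5.43 in obese libraries. The heat map of levels by library shows this order across roles.

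**Figure D1:**
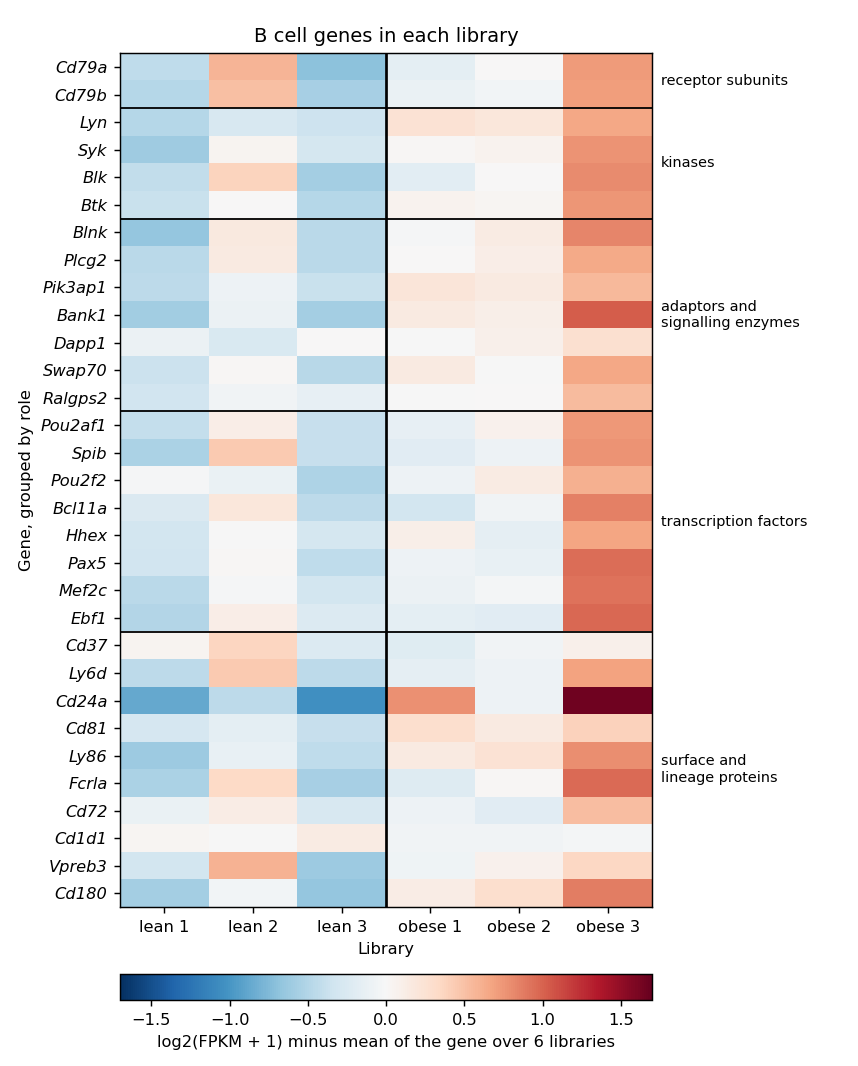
Level of the 31 genes (rows, grouped by role) in each of the 6 libraries (columns), as log2(FPKM + 1) minus the mean of the gene over the 6 libraries. Red is above and blue below that mean. Obese 3 is the reddest column for all but Cd37, Vpreb3 and Cd1d1, and lean 2 is redder than lean 1 and lean 3 for 28 genes.

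The receptor subunits Cd79a (gene 12518, chromosome 7, 24897497 to 24901858, GRCm38) and Cd79b (gene 15985, chromosome 11, 106311341 to 106314562) showed this within-group spread. Cd79a stood at 181, 365 and 150.03 FPKM in lean 1, lean 2 and lean 3 and at 218, 247 and 405 FPKM in obese 1, obese 2 and obese 3. Its groups overlapped, since lean 2 lay above obese 1 and obese 2, while the other lean libraries lay below all obese ones. Cd79b stood at 105, 210.4 and 99.1 FPKM in the lean and at 137, 142 and 242 FPKM in the obese libraries, with the same order. The log2 differences, obese minus lean, were 0.38 ± 0.33 for Cd79a (SE; adjusted p = 0.490, limma with BH) and 0.36 ± 0.30 for Cd79b (SE; adjusted p = 0.470, limma with BH), and neither passed. With both lean 2 and obese 3 left out, a choice made after seeing the data, Cd79b passed (limma, BH-adjusted p = 0.0460).

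Among the kinases, Lyn (gene 17096, chromosome 4, 3678068 to 3791612) rose and the other members did not pass. Lyn, which starts receptor signalling and also phosphorylates inhibitory receptors, stood at 24.4, 28.4 and 26.8 FPKM in the lean and at 41.0, 39.6 and 55.0 FPKM in the obese libraries. Its groups did not overlap, and lean 2 exceeded the other lean libraries only slightly. The log2 difference was 0.73 ± 0.13 (SE; adjusted p = 0.0130, limma with BH), and it did not pass without lean 1 (limma, BH-adjusted p = 0.0557). Blk, the Src-family kinase largely restricted to B cells, followed the receptor subunits instead. It stood at 13.5, 24.1 and 11.9 FPKM in the lean and at 16.02, 18.5 and 32.7 FPKM in the obese libraries, so that lean 2 lay above obese 1 and obese 2 (log2 difference 0.42 ± 0.30, SE; adjusted p = 0.398, limma with BH). Syk, the kinase that docks on the phosphorylated receptor, stood at 19.9, 31.6 and 24.8 FPKM in the lean and at 31.2, 32.1 and 52.7 FPKM in the obese libraries. Lean 2 and obese 1 were nearly level there, and its difference of 0.57 did not pass (limma, BH-adjusted p = 0.147). Btk, the Tec-family kinase that activates phospholipase C gamma 2, lay between 6.76 and 9.91 FPKM in the lean and between 10.1 and 17.2 FPKM in the obese libraries. Its groups did not overlap, but its difference of 0.56 did not pass (limma, BH-adjusted p = 0.138).

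**Figure D2:**
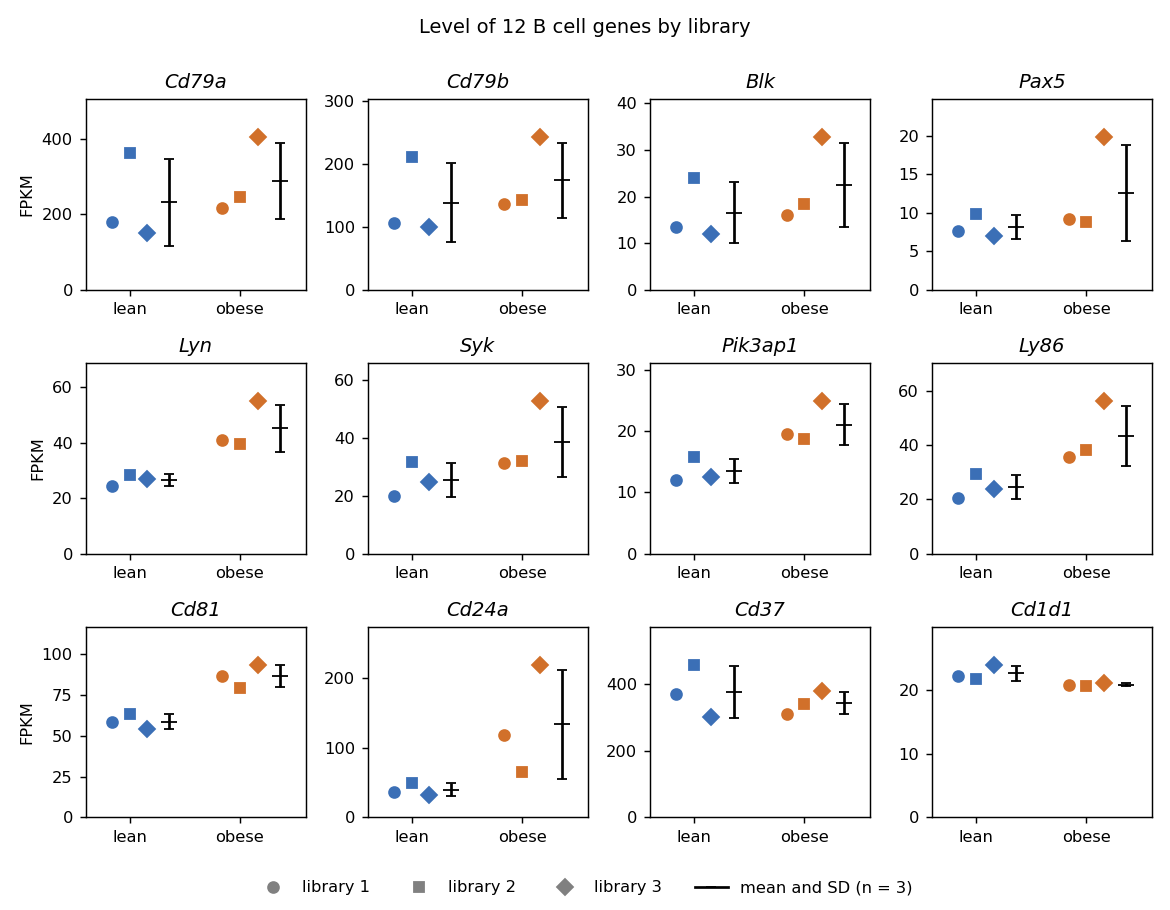
FPKM of 12 genes in each library (circle, square and diamond for libraries 1, 2 and 3 of a group), with the mean and SD of each group (n = 3) beside the points and every vertical axis starting at 0. The square of the lean group and the diamond of the obese group stand apart for Cd79a, Cd79b and Blk, whereas for Lyn, Pik3ap1, Ly86, Cd81 and Cd24a all lean points lie below all obese points.

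Of the 7 adaptors and signalling enzymes, 1 was called, where 6.28% of all tested genes were. It was Pik3ap1 (gene 83490, chromosome 19, 41272541 to 41385102), the adaptor BCAP that recruits phosphoinositide 3-kinase in B cells and also acts below Toll-like receptors in macrophages. Pik3ap1 stood at 12.1, 15.8 and 12.6 FPKM in the lean and at 19.6, 18.8 and 24.96 FPKM in the obese libraries. The groups did not overlap, and the log2 difference was 0.61 ± 0.14 (SE; adjusted p = 0.0353, limma with BH). Removal of lean 1, lean 3, obese 1 or obese 3, each alone, ended the call (adjusted p = 0.0610 to 0.114, limma with BH) or after median-of-ratios scaling (0.0766). Bank1, a scaffold that links LYN to calcium release, had a larger but more variable difference. It stood at 9.03, 13.1 and 9.13 FPKM in the lean and at 15.7, 15.1 and 29.7 FPKM in the obese libraries. The groups did not overlap, yet obese 3 lay farther above the other obese libraries than those lay above the lean ones, and the difference of 0.85 ± 0.24 (SE) did not pass (limma, BH-adjusted p = 0.0789). It passed with lean 2 and obese 3 both left out (limma, BH-adjusted p = 0.0178). That choice was made after seeing that most members were highest there within their group, so the pass is no separate support.

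The central adaptor Blnk stood at 11.8, 21.8 and 13.8 FPKM in the lean and at 19.1, 21.4 and 34.9 FPKM in the obese libraries. Lean 2 again reached the level of the lower obese libraries, and its difference of 0.64 did not pass (limma, BH-adjusted p = 0.162). Plcg2, the phospholipase itself, and Swap70, a binder of actin and phosphoinositides in B cells, had differences of 0.51 and 0.54 (limma, BH-adjusted p = 0.164 and 0.122). Ralgps2, an exchange factor for Ral proteins, ran from 5.27 to 6.54 FPKM in lean and from 6.85 to 10.5 FPKM in obese libraries, with groups that did not overlap and a difference of 0.36 (limma, BH-adjusted p = 0.201). Dapp1, an adaptor that binds phosphoinositides, was the most even of the 7, with 13.2, 11.8 and 14.4 FPKM in the lean and 14.2, 15.2 and 17.4 FPKM in the obese libraries. It was the adaptor with its lowest lean value in lean 2, and its difference of 0.23 did not pass (limma, BH-adjusted p = 0.214).

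None of the 8 transcription factors was called, where 6.28% of all tested genes were, so for 8 genes this is near that share. The groups of each factor overlapped, whereas 31.5% of all tested genes had groups that did not. The differences of the 8 factors lay between 0.33 and 0.52, with BH-adjusted p of at least 0.189 (limma). Pax5, the factor that commits cells to the B lineage, stood at 7.57, 9.88 and 6.94 FPKM in the lean and at 9.14, 8.81 and 19.8 FPKM in the obese libraries. Only obese 3 lay clear of the lean libraries, at 2.21 times the mean of obese 1 and obese 2. Ebf1, which acts with Pax5, had the steepest such excess of the 31 genes, with 2.87, 2.77 and 7.54 FPKM in the obese libraries, 2.67 times in obese 3. In the lean libraries Ebf1 stood at 2.06, 3.67 and 2.68 FPKM, so lean 2 exceeded obese 1 and obese 2. Mef2c, a factor downstream of receptor signals that myeloid cells also express, and Bcl11a, which early B cells and plasmacytoid dendritic cells need, showed excesses of 2.24 and 2.14 times in obese 3.

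The octamer factor Pou2f2 and its co-activator Pou2af1 differed in their lean libraries. Pou2af1 (OBF-1) stood at 33.9, 49.1 and 34.3 FPKM in the lean and at 41.1, 47.8 and 76.5 FPKM in the obese libraries, in the order of the receptor subunits. Pou2f2 stood at 19.2, 17.99 and 13.2 FPKM in the lean and at 18.2, 21.5 and 30.1 FPKM in the obese libraries, with lean 1 and not lean 2 the highest of its group. Vpreb3 and Blnk, whose promoters hold the octamer, had lean 2 levels of 2.16 and 1.7 times the mean of lean 1 and lean 3. The median over the 31 genes was 1.42 times, and Cd79a, in whose promoter no octamer was found, had 2.20 times. In obese 3, Vpreb3 and Blnk had 1.29 and 1.72 times the mean of obese 1 and obese 2. Whether the octamer bears on these levels was not tested. Spib, an ETS factor of B cells and plasmacytoid dendritic cells, ran from 25.5 to 51.3 FPKM in lean and from 32.6 to 64.0 FPKM in obese libraries, and Hhex, a homeobox factor of progenitors, B cells and myeloid cells, from 9.23 to 11.7 and from 10.5 to 19.3 FPKM.

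Of the 10 surface and lineage proteins, 3 were called, all higher in obese libraries, where 5.77% of all tested genes were called higher. Cd81 (gene 12520, chromosome 7, 143052750 to 143067930), a tetraspanin found on B cells and on many other cells, was the member with the lowest adjusted p. It stood at 58.5, 63.5 and 54.2 FPKM in the lean and at 87.0, 79.5 and 93.3 FPKM in the obese libraries. The groups were well apart and each was tight, with a log2 difference of 0.55 ± 0.09 (SE; adjusted p = 0.00896, limma with BH). Cd81 passed under all 19 alternatives that were run, with BH-adjusted p up to 0.0487.

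Ly86 (gene 17084, chromosome 13, 37345345 to 37419036) and Cd180 (gene 17079, chromosome 13, 102693547 to 102706631) encode MD-1 and RP105, which form a complex on B cells, macrophages and dendritic cells that tunes Toll-like receptor 4 signalling. Ly86 stood at 20.5, 29.3 and 23.7 FPKM in the lean and at 35.7, 38.4 and 56.2 FPKM in the obese libraries and rose by 0.79 ± 0.18 on the log2 scale (SE; adjusted p = 0.0388, limma with BH). Removal of lean 1, lean 3 or obese 3, each alone, ended the call (adjusted p = 0.0601 to 0.117, limma with BH) or after median-of-ratios scaling (0.0623). Cd180 stood at 7.78, 11.7 and 7.33 FPKM in the lean and at 13.3, 15.1 and 23.0 FPKM in the obese libraries. Both partners had groups that did not overlap, but the difference of Cd180, 0.86 ± 0.22 (SE), missed the threshold (limma, BH-adjusted p = 0.0533). It passed without lean 2 and without obese 1 (limma, BH-adjusted p = 0.0435 and 0.0476).

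Cd24a (gene 12484, chromosome 10, 43579169 to 43584265) had the largest difference of the 31 genes. It encodes the heat-stable antigen, a small sialylated surface protein that is carried by B cells and is abundant on red cell precursors and neutrophils. Cd24a stood at 37.0, 49.8 and 32.8 FPKM in the lean and at 117, 64.5 and 218 FPKM in the obese libraries. The groups did not overlap, but the obese libraries spread over a wide range with obese 2 the lowest. Obese 1 was lowest for the receptor subunits. The order of Cd24a is not particular to it, since obese 2 was also lowest for Bank1, Btk, Lyn, Pax5 and Ebf1. The same held for Cd72, Cd81, Pik3ap1, Swap70, Hhex and Cd1d1. The log2 difference was 1.57 ± 0.37 (SE; adjusted p = 0.0427, limma with BH), and the call ended when lean 1, lean 2, lean 3 or obese 1 was removed (adjusted p = 0.0808 to 0.114, limma with BH). Of the 19 alternatives, Cd24a passed under 8 and fell short under 11. Among the latter were no filter on low values and quantile normalization (adjusted p = 0.111 and 0.0649, limma with BH). Obese 2 was also the lowest obese library for the summed 12 erythroid markers, at 4382 FPKM against 29079 in obese 1 and 23585 in obese 3, while the lean libraries held 187 to 485 FPKM. The erythroid sum was highest in obese 1, whereas Cd24a was highest in obese 3. The summed 10 neutrophil markers were lower in obese libraries, at 143 to 403 FPKM against 535 to 766 FPKM in lean ones. The part of erythroid or neutrophil RNA in the Cd24a difference was not tested. Intronless relatives of Cd24a exist in the mouse genome, so reads may be shared and its level is uncertain.

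The remaining surface and lineage proteins did not pass. Cd37, a leukocyte tetraspanin and the most abundant member in every library but obese 3, stood at 369.8, 458 and 303 FPKM in the lean and at 311, 342 and 379 FPKM in the obese libraries. It was lower on average in obese libraries, with overlapping groups and a difference of −0.12 ± 0.14 (SE; adjusted p = 0.634, limma with BH) that turned to 0.03 without lean 2. Cd1d1, which presents lipids to natural killer T cells and is highest on marginal zone B cells, was nearly flat, at 22.2, 21.6 and 23.9 FPKM in the lean and at 20.7, 20.6 and 21.1 FPKM in the obese libraries. It was the single member with every obese library below every lean one, but its difference of −0.11 ± 0.08 (SE) did not pass (limma, BH-adjusted p = 0.388). Its near-identical copy Cd1d2 is listed at 0 in all 6 libraries, so reads of the copies may have been assigned to Cd1d1.

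Vpreb3, which assists the assembly of antibody light chains, stood at 12.9, 25 and 10.3 FPKM in the lean and at 15.4, 17.1 and 21.0 FPKM in the obese libraries. Lean 2 was its highest library, and its difference of 0.23 did not pass (limma, BH-adjusted p = 0.624). Fcrla, an intracellular Fc receptor relative of B cells, ran from 21.5 to 41.2 FPKM in lean and from 27.5 to 64.1 FPKM in obese libraries. Ly6d, a surface marker of lymphoid progenitors committed to the B lineage and of B cells, ran from 124 to 230.03 and from 152 to 272 FPKM. The inhibitory co-receptor Cd72 ran from 28.3 to 37.4 and from 30.0 to 49.6 FPKM. These last 3 genes had differences of 0.51, 0.30 and 0.17, with overlapping groups and BH-adjusted p of 0.347, 0.520 and 0.586 (limma). Exons of Cd72 overlap those of Tesk1 on the opposite strand by up to 1423 bases, and shorter opposite-strand overlaps touch Lyn, Cd180, Cd81, Cd37, Bcl11a and Swap70. The strand setting of the counting is not given in the sources used here, so reads of such partners may not be told apart.

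Across the 31 genes the comparison of diets called 5 higher in obese libraries, where 5.77% of all tested genes were called higher, and none lower, where 0.519% were, or 6.28% in either direction (limma, BH-adjusted p under 0.05). At an unadjusted p under 0.05 there were 13 members, all higher, against 25.9% of all tested genes in either direction. The obese mean was above the lean mean on the log2 scale for 29 members and for 70.8% of tested genes, with a median difference of 0.46 against 0.10. All called members (Lyn, Pik3ap1, Ly86, Cd81 and Cd24a) are also expressed outside the B lineage. None of the 11 members listed as mainly of B cells in the spleen was called (median difference 0.42), which for 11 genes is near the 5.77% of all tested genes. Of the 16 listed as also of myeloid cells, 4 were called (median 0.53). Both lists were made with earlier results of these data known. With lean 2 and obese 3 both left out, Cd79b, Bank1 and Blnk of the 11 were called. Those libraries were picked after seeing that most members were highest there within their group. Their removal lowers the members' within-group spread, so these calls are no separate support. The count of called members fell to 1 without lean 1 (3.02% of all tested genes were called), to 2 without lean 3 (6.47%) and to 3 without obese 3 (4.3%). It was 3 after median-of-ratios scaling (5.63%) and 2 after quantile normalization (4.08%). With lean 2 and obese 3 both left out it rose to 9 (2.75%), a rise that the choice of libraries favours. Median-of-ratios scaling moved the median difference of all tested genes from 0.10 to −0.03 and that of the members to 0.31, and 29 members had a positive difference under it.

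The count of members whose groups did not overlap depended on lean 2. Lean 2 was the highest lean library for 28 members, against 24.7% of tested genes. Its removal therefore favoured a rise among the members. Without it, the shares of all tested genes are no like-for-like comparison. With all 6 libraries, 9 members were higher in every obese library (25.4% of all tested genes were) and 1 was lower (6.15%). Without lean 2, 25 members were higher in every obese library, against 28.9% of all tested genes, and 26 had groups that did not overlap in either direction, against 37.2%. With obese 3 left out as well the counts were again 25, against 33.9%, and 26, against 45.6%. Without lean 2, the 6 that were not higher were Pou2f2, Cd72, Cd37, Dapp1, Bcl11a and Cd1d1. In those 4 libraries the mean of obese 1 and obese 2 was 1.40 times that of lean 1 and lean 3 for Cd79a, 1.36 times for Cd79b, 1.7 times for Bank1 and 1.88 times for Cd180. The median of this ratio was 1.36 over the 31 genes and 1.05 over all tested genes.

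The size of the excess in lean 2 and obese 3 differed between members. For the 11 genes mainly of B cells, lean 2 held a median of 1.7 times the mean of lean 1 and lean 3, and obese 3 held 1.74 times the mean of obese 1 and obese 2. For the 16 genes also of myeloid cells the medians were 1.30 and 1.52, and over all tested genes they were 0.956 and 1.04. The 9 T cell genes lay at 1.03 and 0.813, so obese 3 was low in T cell transcripts while it was high in B cell ones. Across the 31 genes the excesses of lean 2 and obese 3 had a Pearson r of 0.47 on log2 ratios, which describes genes that share the same libraries and carries no test. Within the 11 genes mainly of B cells r was −0.21. Cd79a, Cd79b and Vpreb3 led in lean 2 and Ebf1, Pax5 and Fcrla in obese 3, though Fcrla was also high in lean 2, at 1.90 times. Vpreb3 lay at 2.16 times in lean 2 and 1.29 times in obese 3, and Ebf1 at 1.55 and 2.67 times.

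**Figure D3:**
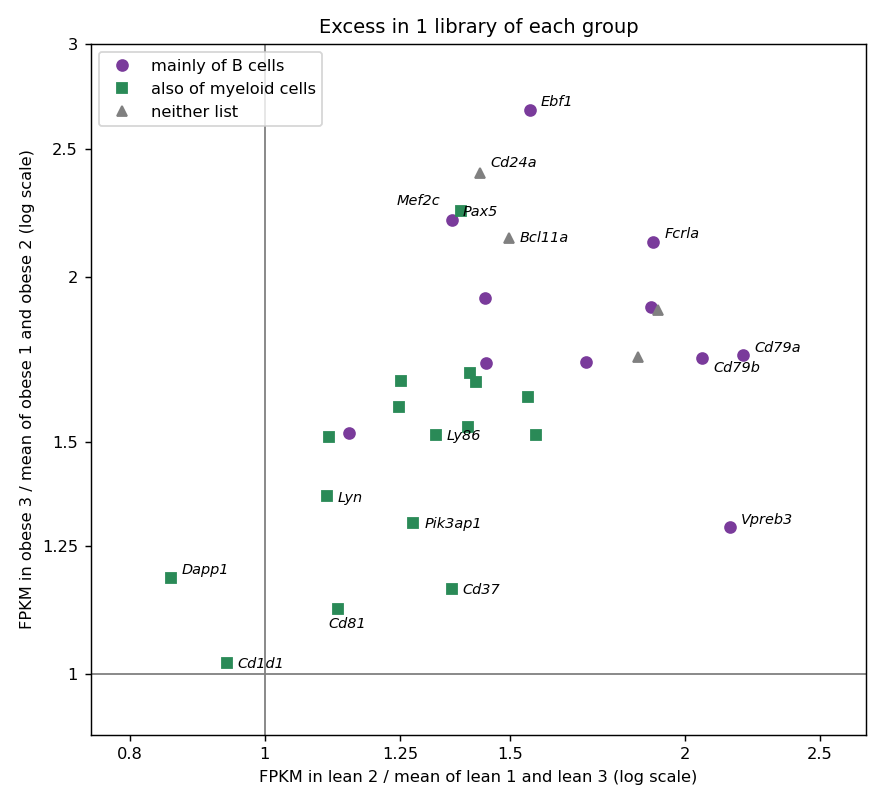
For each of the 31 genes, FPKM in lean 2 over the mean of lean 1 and lean 3 (horizontal, log scale) against FPKM in obese 3 over the mean of obese 1 and obese 2 (vertical, log scale), with colour and symbol for the list of the gene. Most points of genes mainly of B cells lie to the upper right, except Ralgps2 on the left and Vpreb3 low on the right, and Cd81, Cd1d1 and Dapp1 lie near 1 on both axes.

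A B cell reference level was taken from 6 genes outside the list, to compare the diets at equal B cell signal. They included Ms4a1 (CD20), Cd22, Fcer2a (CD23), Cr2 (CD21) and Tnfrsf13c (the BAFF receptor), and none of the 6 was called (limma, BH-adjusted p of at least 0.181). Their mean log2(FPKM + 1) was 4.19, 4.90 and 4.12 in the lean and 4.58, 4.63 and 5.52 in the obese libraries. Lean 2 and obese 3 were again the highest of their groups, and lean 2 lay above obese 1 and obese 2. The summed level of the 14 macrophage and monocyte markers was 681, 760 and 662 FPKM in the lean and 1701, 1553 and 1724 FPKM in the obese libraries, so lean 2 and obese 3 also had the highest sums of their groups. By mean log2(FPKM + 1) the highest were lean 3 and obese 1, with 4.13, 4.17 and 4.35 in the lean and 5.82, 5.604 and 5.56 in the obese libraries. None of the 14 was at 0 in any library.

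**Figure D4:**
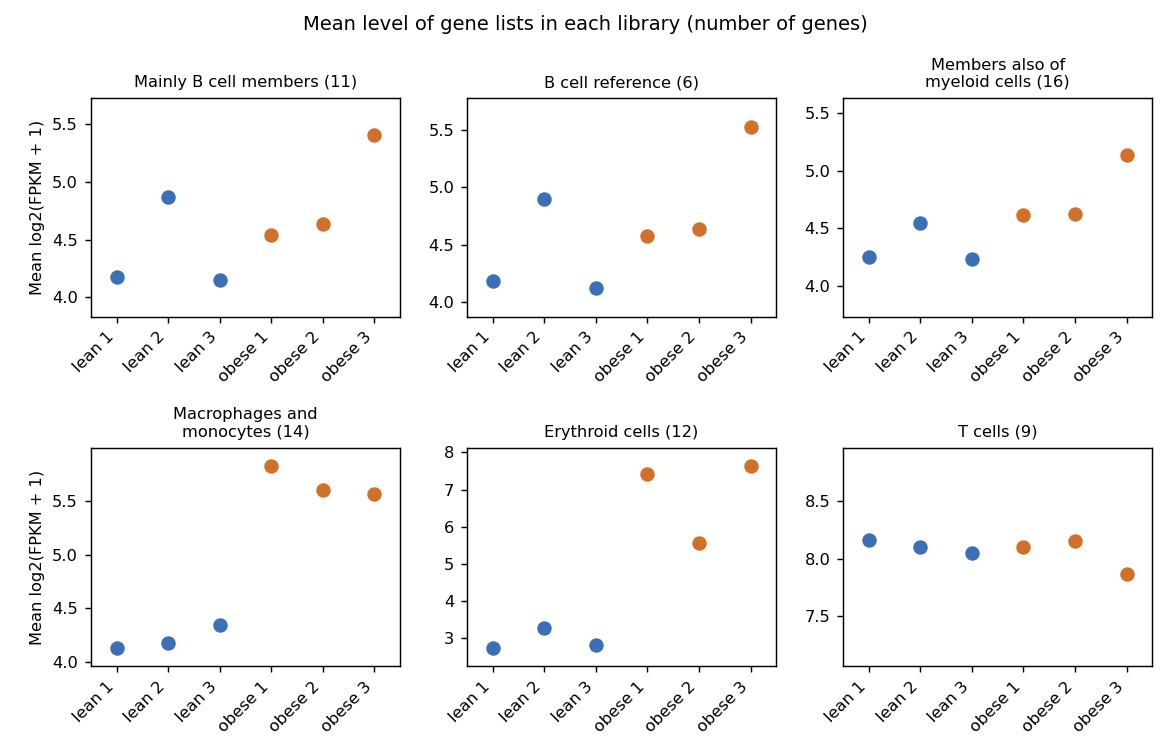
Mean log2(FPKM + 1) of 6 gene lists in each library, lean in blue and obese in orange, with a separate vertical scale per panel that does not start at 0. The 11 members mainly of B cells follow the 6 reference genes, with lean 2 and obese 3 high, while the macrophage panel splits the diets with no overlap.

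With that reference level in the model beside the group, the median difference of the 31 genes was 0.11, close to the 0.10 of all tested genes, and 19 members had a positive difference. Cd81 and Lyn still passed, with log2 differences of 0.45 ± 0.09 and 0.55 ± 0.11 (SE; adjusted p = 0.0486 and 0.0400, limma with BH). Ly86, Pik3ap1 and Cd24a had 0.49, 0.40 and 1.01, short of the threshold (adjusted p = 0.0669, 0.12 and 0.121, limma with BH). Cd79a and Cd79b turned to −0.20 ± 0.15 and −0.18 ± 0.12 (SE), and Blk, Ebf1, Spib, Fcrla, Cd72, Vpreb3, Bcl11a and Ly6d also changed sign, none past the threshold. The reference level correlated with the group at 0.54 over the 6 libraries, so part of the group difference is shared with it. Macrophage and monocyte markers were higher in every obese library, from 1553 FPKM against at most 760 in the summed level, and their part in the differences of Lyn, Cd81, Ly86, Pik3ap1 and Cd180 was not tested.

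**Figure D5:**
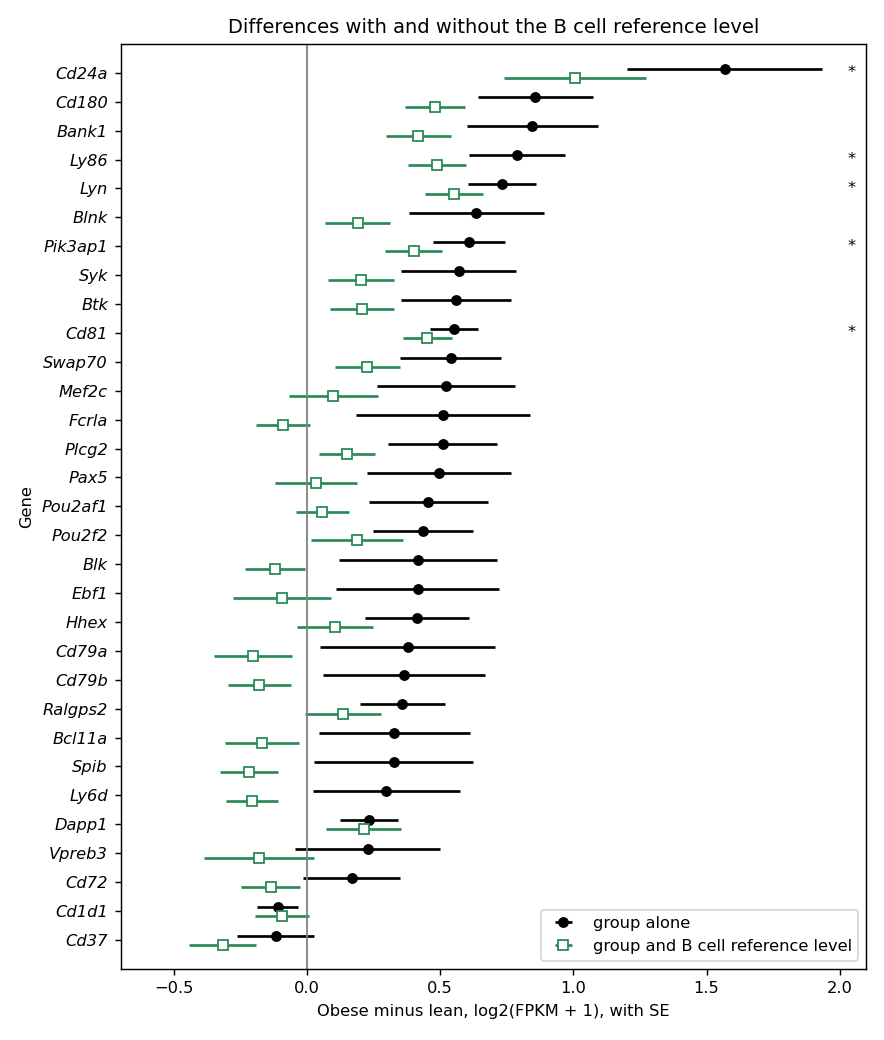
Log2 difference, obese minus lean, with its SE for each of the 31 genes from the model with the group alone (black circles) and from the model that also holds the B cell reference level (open green squares). Asterisks mark the 5 genes called by the model with the group alone. Most squares lie nearer 0 than their circles, and those of Cd81 and Lyn move least among the called genes.

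Other genes of the receptor pathway came from a list of 44. Of these, 38 were in the table and tested, and 5 were called higher and none lower, where 5.77% and 0.519% of all tested genes were. The median difference was 0.40, against 0.10 over all tested genes. Antibody chain genes of the list (Ighm, Ighd, Igkc, Iglc1, Iglc2 and Iglc3) were not analysed here. Among 7 receptors and co-receptors, 1 rose: Pirb, an inhibitory receptor of myeloid and B cells, stood at 10.9, 11.7 and 11.1 FPKM in the lean and at 22.8, 23.3 and 25.9 FPKM in the obese libraries (log2 difference 1.03 ± 0.09, SE; adjusted p = 4.82e-04, limma with BH). Its groups were far apart and lean 2 did not stand out. Siglecg and Fcgr2b, inhibitory receptors of B cells, ran from 10.6 to 21.1 and from 14.9 to 18.8 FPKM in lean and from 14.8 to 29.6 and from 16.9 to 33.4 FPKM in obese libraries.

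Of 19 further signalling genes, many of them shared with T cells, 2 rose. Ptprc, the phosphatase CD45 of all white blood cells, rose by 0.50 ± 0.11 and Vav3, a guanine nucleotide exchange factor, by 0.44 ± 0.11 on the log2 scale (SE; adjusted p = 0.0342 and 0.0491, limma with BH). The median over the 19 was 0.24. Those with the highest levels, Ptpn6, Pik3cd and Grb2 among the genes not called, had differences of 0.19, −0.05 and 0.06 and none passed (limma, BH-adjusted p of at least 0.277). Of 12 identity genes, 2 rose: Cd83, an activation marker of B cells and dendritic cells, by 0.57 ± 0.11, and Ikzf3, the factor Aiolos of B cells and other lymphocytes, by 0.39 ± 0.10 (SE; adjusted p = 0.0180 and 0.0486, limma with BH). Fcmr, the Fc receptor for IgM and the identity gene with the highest mean level, stood at 79.6, 150.4 and 66.5 FPKM in the lean and at 98.4, 111 and 196 FPKM in the obese libraries, in the order of Cd79a.

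All 6 genes of the B cell precursor list lay at or under 4.50 FPKM in each library. Rag1, Rag2 and Igll1 lay at or under 0.24 FPKM, with Igll1 listed at 0 in 3 libraries, Vpreb1 between 0.41 and 0.84 FPKM, Cd93 between 1.56 and 3.07 FPKM and Dntt between 3.05 and 4.50 FPKM. Only Cd93 and Dntt passed the filter, and neither was called (limma, BH-adjusted p = 0.289 and 0.573). Vpreb3, which mature B cells keep, lay between 10.3 and 25 FPKM. Of 5 marginal zone genes, Dtx1, which T cells also express, fell by 0.38 on the log2 scale (limma, BH-adjusted p = 0.0395), and Cr2 and Cd1d1 did not pass. Plasma cell markers lay higher in obese libraries for 8 of 8 genes, as did 70.8% of all tested genes. Of the 8, 2 were called, where 5.77% of all tested genes were called higher. The summed level of the 8 was 490.07 to 576 FPKM in lean and 784 to 1420 FPKM in obese libraries.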

How the data were processed

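Per the labels' protocols, an Illumina HiSeq read the RNA of all 6 libraries. The authors deposited 1 table per library with FPKM values of 2 decimals. Per the submitters' processing notes, Bowtie and RSEM were used with GRCm38 and mm10 named as builds. Tool versions, annotation, filters and strand setting were not given there or in the other sources used here. No whole-read steps were found in low FPKM values (score 0.170 to 0.275, against 0.891 to 0.914 for simulated whole reads). The simulation used the same assumed transcript and fragment lengths as the score, so wrong lengths could also give a low score. Depth is therefore unknown, and precision rests on the spread between libraries.

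Values were taken as log2(FPKM + 1), which understates changes of low genes. A gene was tested if 3 or more of the 6 libraries reached 1 FPKM, which left 10788 genes. The test was 2-sided, with limma 3.58.1 in R 4.3.3 (intensity trend, group as the only term), and p-values were Benjamini-Hochberg (BH) adjusted over all of them. A gene was called under 0.05. The fit was tested on simulated data. The 31 members and all gene lists were chosen with earlier results of these data known. Named genes were all members, the B cell reference genes (1 is not reported here by name) and, of other lists, the called genes and up to 4 further genes with the highest mean FPKM. Siglecg was named outside this rule, after its values were seen. Coordinates and promoters are RefSeq's, build GRCm38.p6, matched by gene number for all 31 and for 25 members, and exon overlaps come from GENCODE. Alternatives were other pseudocounts, filters, scalings, variance models, library weights, a replicate block, a B cell covariate and each library left out. The removal of lean 2 and obese 3 together was added after seeing the data.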

Additional observations from a re-analysis of the deposited data

How the results depend on the processing

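The fits gave 587 values for single members under the 19 alternatives. Of these, 528 kept direction and side of the threshold, 28 fell short of it, 16 newly passed and 15 changed sign. Cd81 passed under all 19 and Lyn under 18. The count of called members was 5, where 6.28% of all tested genes were called. It was 2 with no filter on low values (2.12% of all tested genes), with quantile normalization (4.08%) and with the B cell covariate (2.49%). It was 3 with a filter at a mean of 5 FPKM (4.15%) and after median-of-ratios scaling (5.63%). With library weights it was 13, but the share over all tested genes rose as well, to 28.9%. Without lean 2 and obese 3, picked after their high member levels were seen, it was 9 (2.75%). In each of these fits all called members were higher in obese libraries. Leaving out 1 library gave 1 to 5 called members (2.95% to 6.47% of all tested genes). The count of other pathway genes called, 5, was 3 with a pseudocount of 5, with the filter at a mean of 5 FPKM, with quantile normalization and without intensity trend. It was 1 with no filter, after median-of-ratios scaling and with the B cell covariate, and 2 without lean 2 and obese 3. It was 17 with library weights, where 28.9% of all tested genes were called. Rescaling without the 11 genes whose symbols matched haemoglobin, immunoglobulin or mitochondrial names gave 8, where 9.2% of all tested genes were called. Leaving out 1 library gave 1 to 4. Members whose groups did not overlap numbered 10, where 31.5% of all tested genes had such groups. Without lean 2 and obese 3 there were 26, against 45.6%. When 1 library was left out there were 10 to 26, the highest without lean 2, against 37.2% of all tested genes. Leaving out lean 2 favours the members, since it was the highest lean library for most of them.

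Sign changes were −0.00538 for Cd72 with library weights, and with the B cell covariate −0.20 for Cd79a, −0.18 for Cd79b, −0.12 for Blk, −0.0941 for Ebf1, −0.22 for Spib, −0.0900 for Fcrla, −0.14 for Cd72, −0.18 for Vpreb3, −0.17 for Bcl11a and −0.21 for Ly6d. With 1 library left out, the log2 difference ran from −0.0517 to 0.302 for Cd72, from −0.264 to 0.0329 for Cd37, from −0.0255 to 0.578 for Vpreb3 and from −0.0188 to 0.565 for Bcl11a. The sign turned for Cd72 and Bcl11a without obese 3, for Cd37 without lean 2 and for Vpreb3 without lean 3. None of these passed. The fit with no filter tested 17392 genes and that with the filter at a mean of 5 FPKM 7902, against 10788. The cause of the changes under these and the other alternatives was not tested. The labels give same-numbered libraries no link but the number. Their deviations correlated at 0.03, 0.06 and 0.19 for numbers 1, 2 and 3, and those of other lean and obese pairs at −0.17 to 0.16. With 3 libraries per group, such values cannot decide whether the libraries were paired. With the replicate number as a block, 4 members and 6 other pathway genes were called, where the share over all tested genes was 9.41% instead of 6.28%. Cd24a was the member lost (limma, BH-adjusted p = 0.0586). Unknown depth limits what can be said of genes near 1 FPKM.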
